A study of Homo sapiens and Mus musculus with 14 samples.

Results

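The peaks described here are accessible regions that were listed in each of 2 SMARCAL1 knockout clones of MDA-MB-436, a human breast adenocarcinoma cell line, and not in its control cells. A peak of the clone 1 list on chromosomes 1 to 22 and X was a member when it shared at least 1 bp with a peak of the clone 2 list and overlapped no control peak. This gave 576 members among 38503 clone 1 peaks on these chromosomes. Of those clone 1 peaks 11785 (30.6%) had no control peak, and 4.89% of the 11785 were members. The share depended on how it was counted: it was 8.75% with scores of at least 6 in both clones, 16.4% counted as clone 2 peaks, and 11.9% among clone 1 peaks whose score has the digits of a mean. Members were chosen by presence and absence in the 3 lists, so these counts and the scores of the peaks are descriptions and carry no test. "Gained" is used below only for this pattern of presence and absence.

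Accessibility was measured by ATAC-seq, in which a transposase cuts open DNA and leaves sequencing adapters there. SMARCAL1 is a DNA translocase of the SNF2 family that is recruited to stalled replication forks and remodels them, and the study set cells with and without it side by side. The control group (genotype Control, 3 libraries) and SMARCAL1 knockout clone 1 (3 libraries) belong to batch 1, and SMARCAL1 knockout clone 2 (2 libraries) belongs to batch 2. All were grown in the same medium, and no further treatment is named. Each knockout group is a single clone, and for clone 2 the clone and the batch cannot be told apart from each other. Another 6 libraries, of B16F10 mouse melanoma cells with Smarcal1 knocked out or reconstituted, were not analysed here. The replicates of each group had been merged into 1 peak list before deposit, so no value below has a replicate error, and intervals cover counting error only.

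Open chromatin falls into a few well-known kinds. Sites at transcription starts are often wide, strong and shared between cell types, and many lie in CpG islands. Sites far from genes include enhancers and insulators, and these differ more between cell types and between clones of a line. A peak caller lists a site only where its reads pass a threshold over background, so a weak site can be listed in one sample and missed in another.

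Starts of protein-coding genes are the members whose sequence can be shown, and 22 such genes had their annotated start region (250 bases before to 50 after the start, RefSeq, GRCh38.p14) covered by peaks of both clones. SYNJ2BP and SYNJ2BP-COX16 in this count share 1 start. The start base lay inside the clone 1 peak at all 22 genes and inside the peaks of both clones at 14. The 250 bases before the start are printed for 8 of them in which the stretch overlapped no protein-coding gene, in the direction of transcription. Capitals mark the bases covered in both clones.
YAE1, chr7:39566154-39566403, plus strand: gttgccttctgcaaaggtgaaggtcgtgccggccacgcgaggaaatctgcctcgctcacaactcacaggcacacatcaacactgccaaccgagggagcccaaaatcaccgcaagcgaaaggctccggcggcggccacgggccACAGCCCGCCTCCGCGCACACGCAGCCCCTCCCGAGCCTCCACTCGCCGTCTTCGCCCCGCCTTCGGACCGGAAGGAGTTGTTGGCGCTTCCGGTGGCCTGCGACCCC
TMEM63C, chr14:77181548-77181797, plus strand: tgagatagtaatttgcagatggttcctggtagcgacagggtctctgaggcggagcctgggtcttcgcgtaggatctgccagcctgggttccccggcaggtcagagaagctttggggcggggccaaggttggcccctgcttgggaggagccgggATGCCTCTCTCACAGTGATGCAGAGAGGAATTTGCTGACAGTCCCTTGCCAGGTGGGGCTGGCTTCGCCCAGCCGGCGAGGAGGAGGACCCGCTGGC
MYCN, chr2:15940300-15940549, plus strand: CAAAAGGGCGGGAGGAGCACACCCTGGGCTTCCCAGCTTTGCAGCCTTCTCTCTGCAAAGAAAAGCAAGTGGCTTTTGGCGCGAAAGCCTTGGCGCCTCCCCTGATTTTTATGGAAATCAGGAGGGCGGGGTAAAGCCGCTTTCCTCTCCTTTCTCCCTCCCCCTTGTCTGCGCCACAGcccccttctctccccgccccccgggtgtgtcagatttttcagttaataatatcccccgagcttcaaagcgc
TSHZ2, chr20:52972108-52972357, plus strand: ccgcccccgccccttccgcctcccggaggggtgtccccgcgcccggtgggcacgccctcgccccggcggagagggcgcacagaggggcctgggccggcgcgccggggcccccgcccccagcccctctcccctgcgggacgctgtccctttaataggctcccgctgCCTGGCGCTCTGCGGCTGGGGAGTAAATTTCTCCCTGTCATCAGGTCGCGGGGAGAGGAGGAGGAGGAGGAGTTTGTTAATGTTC
GPM6A, chr4:176002394-176002643, minus strand: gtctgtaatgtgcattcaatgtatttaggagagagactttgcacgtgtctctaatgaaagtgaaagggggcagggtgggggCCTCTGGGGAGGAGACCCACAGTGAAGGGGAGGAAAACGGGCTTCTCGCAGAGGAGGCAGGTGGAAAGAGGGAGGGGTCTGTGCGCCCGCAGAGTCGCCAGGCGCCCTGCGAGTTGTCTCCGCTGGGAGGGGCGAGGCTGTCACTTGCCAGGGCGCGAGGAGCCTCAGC
ARSI, chr5:150302906-150303155, minus strand: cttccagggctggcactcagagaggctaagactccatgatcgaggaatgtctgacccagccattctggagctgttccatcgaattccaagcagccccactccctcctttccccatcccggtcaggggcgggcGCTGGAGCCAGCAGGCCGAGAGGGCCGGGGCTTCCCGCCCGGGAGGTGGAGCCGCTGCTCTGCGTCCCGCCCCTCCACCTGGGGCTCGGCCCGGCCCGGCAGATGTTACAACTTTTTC
SART1, chr11:65961484-65961733, plus strand: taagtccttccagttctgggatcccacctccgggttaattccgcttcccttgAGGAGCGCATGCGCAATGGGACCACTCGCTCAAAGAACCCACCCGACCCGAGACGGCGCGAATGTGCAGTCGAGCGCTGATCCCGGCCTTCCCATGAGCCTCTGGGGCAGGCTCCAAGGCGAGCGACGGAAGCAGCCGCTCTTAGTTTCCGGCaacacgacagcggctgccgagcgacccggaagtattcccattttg
SCP2, chr1:52927026-52927275, plus strand: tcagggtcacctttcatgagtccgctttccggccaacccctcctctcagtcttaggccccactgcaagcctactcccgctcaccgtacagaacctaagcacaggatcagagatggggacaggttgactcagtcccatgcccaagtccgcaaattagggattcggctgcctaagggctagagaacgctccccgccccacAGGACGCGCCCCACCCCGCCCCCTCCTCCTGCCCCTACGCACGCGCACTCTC

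YAE1, an assembly factor for an iron-sulfur protein of the ribosome cycle, showed the plainest arrangement. Its clone 1 peak ran from 268 bp before to 486 bp after the start and its clone 2 peak from -108 to 20, and the nearest control peak was 13667 bp from the clone 1 peak. Each deposited peak has 1 score from the authors, read here as -log10 p. At YAE1 it was 6.07 for clone 1 and 10.3 for clone 2. TMEM63C, a membrane channel gene, had scores of 7.37 and 9.70, and its clone 2 peak spanned -97 to 57. The TSHZ2 start, of a zinc finger homeobox gene, scored 5.34 and 7.77. GPM6A, a neuronal membrane glycoprotein gene, scored 5.27 and 11.01, and its nearest control peak was 117680 bp away. The control list had no peak within 3000 bp of any of these 4 starts.

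MYCN, which encodes a transcription factor of the MYC family, differed from these. Its member spanned -770 to 9 with a score of 5.98, and the clone 2 peak spanned -390 to -72 with a score of 12.6. A control peak with a score of 7.10 lay from 259 to 472 bp after the start, 249 bp from the member, and a further clone 1 peak (81 to 550, score 5.40) covered it. A further clone 2 peak lay inside the member, from -759 to -613, with a score of 8.72. The MYCN member thus lay mostly before the start and reached the start base. It stood beside a site just inside the gene that control also had and where clone 2 had no listed peak. Within 3000 bp of the 22 starts the control list held a peak at 2, MYCN and QNG1.

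**Figure D1:**
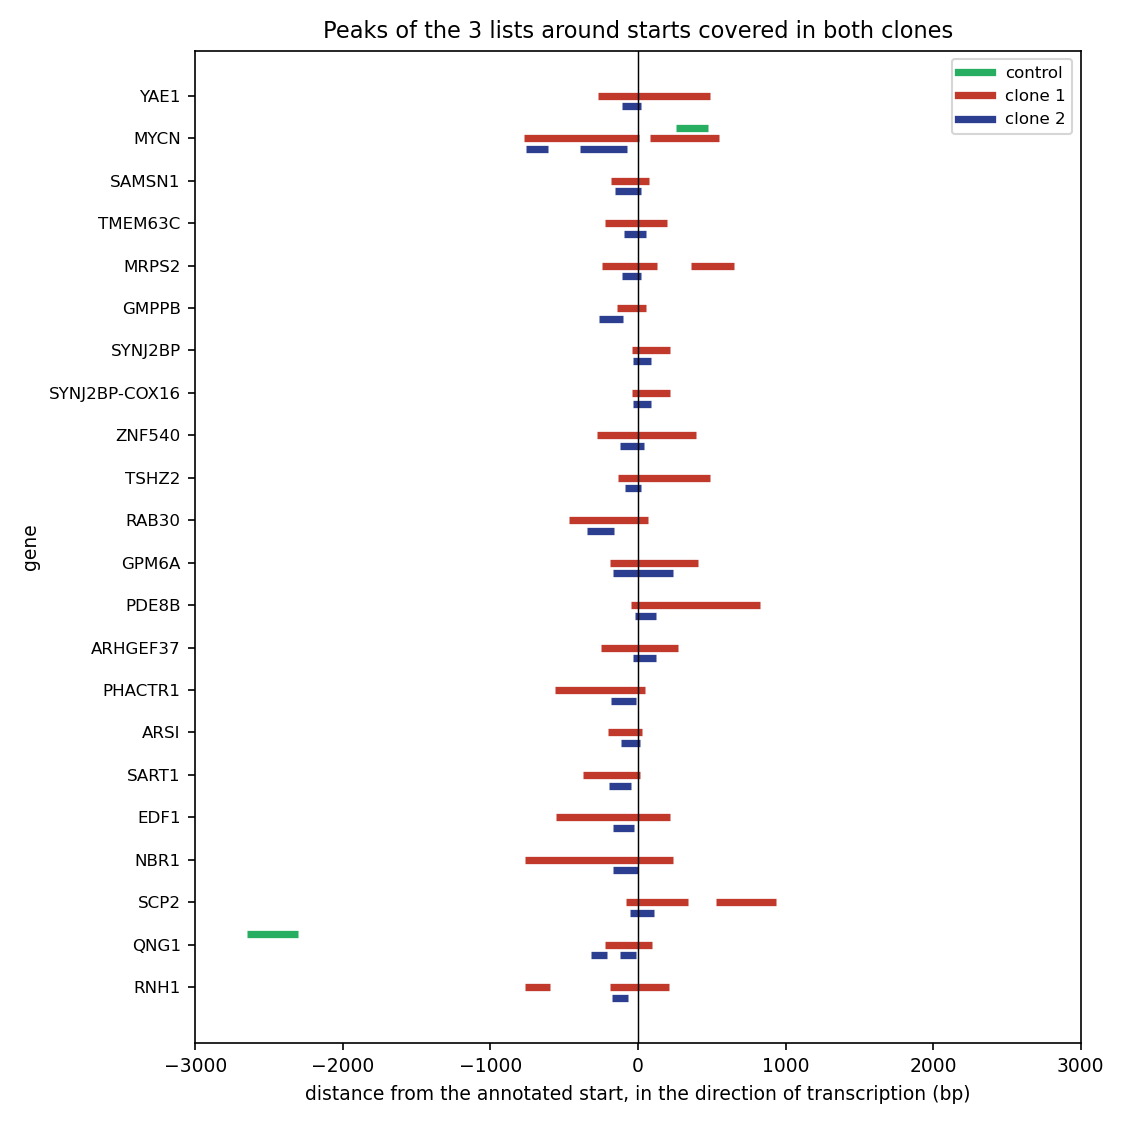
Peaks of the control, clone 1 and clone 2 lists within 3000 bp of the 22 protein-coding starts covered in both clones, drawn by distance from the annotated start in bp along the direction of transcription. Each bar is 1 deposited peak. Clone 1 peaks are wider than clone 2 peaks, and control bars appear only at MYCN and QNG1.

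Counting the shared start once leaves 21 distinct start regions, set here beside all 15715 distinct protein-coding start regions in the RefSeq table. The median number of CG dinucleotides per 300-base region was 20 among the 21 and 22 over all, and 14 of 21 (66.7%) held 15 or more against 65.4% over all. They ranged from EDF1, a transcriptional coactivator gene, with 45, to SAMSN1, an immune adaptor gene, with 0. The GC box (GGGCGG, either strand, as for all motifs here), bound by SP1, was found in 10 of 21 regions (47.6%) against 58.5% over all. The CCAAT box (CCAAT) was found in 6 (28.6%) against 36.3%, and the ETS motif (CCGGAAG) in 4 (19.05%) against 14.1%. The AP-1 motif (TGANTCA) was found in 2 (9.52%) against 5.75%, 1 of them in the SCP2 stretch printed above. That match is in lower case, outside the bases covered in both clones, as whole regions were searched. The other AP-1 match, TGAATCA before the SAMSN1 start, lies within the bases covered in both clones. An interferon response motif (ISRE) occurred in 2 (9.52%) against 3.16%, with 1 match in the GPM6A stretch, also in lower case. No TATA box (TATAAA) occurred among the 21, against 9.67% over all. With 21 regions, each match moves a share by several points, and a match describes letters only.

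At the level of genes, 42 of the 576 members (7.29%, exact binomial 95% interval 5.31 to 9.73) were within 1000 bp of the start or the end of a protein-coding gene as annotated, and are called gene-end peaks here. They touched 52 genes, which is 0.26% of the 19974 protein-coding genes on these chromosomes. At 40 of the 52 the control list had no other gene-end peak. For comparison, control lacked a gene-end peak at 7808 genes. Clone 1 had one at 5.93% of these, and both clones at 44 (0.564%). Where control did have a gene-end peak, both clones had theirs at 64.7% of genes. Across the 52 genes the clone 1 score ran from 5.02 to 7.84 with a median of 5.60, and the clone 2 score from 5.07 to 15.5 with a median of 8.99. 

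Genes were ordered by the poorer of the member's ranks in clone 1 and clone 2. The first after YAE1 were RAB38, MYCN, TMEM63C and B3GNT5. RAB38, a GTPase of melanosome biogenesis, had a 224 bp clone 1 peak that wholly held a 156 bp clone 2 peak, with scores of 6.91 and 10.2 and a gap of 157833 bp to the nearest control peak. B3GNT5, a glycosyltransferase that starts lacto-series glycolipids, had the widest member, 1405 bp, at scores of 5.77 and 9.80. Next came 1 peak within the far end of NDUFB6, which encodes a subunit of respiratory complex I, and 623 bp from the start of TOPORS, a ubiquitin and SUMO ligase gene, with scores of 5.61 and 9.43. The control had another gene-end peak at both of these genes, and its nearest peak was 381 bp away.

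The other first-ranked genes were of varied function. DUSP26, a protein phosphatase gene, had scores of 6.66 and 8.92. H3C12, a replication-dependent histone H3 gene, had 5.60 and 9.24. MRPS2, of the mitochondrial ribosome, and its neighbour PIERCE1 shared 1 member at 5.60 and 10.5, and the olfactory receptor genes OR4E1 and OR4E2 shared another at 5.58 and 10.0. NOL10, a nucleolar protein gene, had 5.56 and 15.5, the highest clone 2 score among the 52. MAP3K6, a stress kinase gene, had 5.90 and 8.65. Scores rank peaks within a list and are not compared between lists.

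Most members lay away from gene ends. Of the 576, 336 (58.3%, 54.2 to 62.4) overlapped no protein-coding gene body, and their median distance to the nearest such gene was 114602 bp. Beyond 100 kb of any protein-coding gene lay 176 members (30.6% of all), beyond 500 kb 37, and beyond 1000 kb 9. The most distant was on chromosome 4 (34250563 to 34251065), 1.75 Mb from ARAP2, with scores of 5.21 and 10.3. Of clone 1 peaks in neither other list, 54.1% also overlapped no gene body. Distances were computed for members only, so whether other clone 1 peaks lie as far out was not tested. The 240 members inside gene bodies touched 235 genes (1.18% of all genes), with a median length of 153 kb. The median was 80.6 kb for 3573 genes holding a clone 1 peak in neither other list, and 24.2 kb over all genes. A longer gene offers more room for any peak, and the sets hold unlike numbers of peaks, so these lengths are a description.

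DLG2, a synaptic scaffold gene of 2173 kb, held the most members, 3 in the gene and 10 kb on each side, where clone 1 had 18 peaks absent in control and clone 2 had 6. Many genes held 2. In alphabetical order the first of these were ASTN2, a neuronal migration gene, CCSER1, CMSS1 and CTNNA2, an alpha-catenin gene. At CCSER1 both clone 1 peaks absent in control were members, out of 2 clone 1 peaks in all. KCNH7, a potassium channel gene, also had 2 of 2, while ASTN2 had 2 of 9 and CTNNA2 2 of 7.

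The rule did not name position, so position can be set beside that of other clone 1 peaks. It did bar overlap with control peaks, and control had a gene-end peak at 12166 of the 19974 protein-coding genes. A gene-end share below that of peaks found in control can therefore follow from the rule itself. The gene-end share of 7.29% was close to that of the 11209 clone 1 peaks absent in both other lists, 6.34% (5.90 to 6.81). It was far below the 34.3% (33.7 to 35.0) of the 20238 clone 1 peaks found in all 3 lists and the 28.2% (27.1 to 29.3) of the 6480 found in control and not in clone 2. Members were weaker than the peaks of all 3 lists, so these were also weighted to the members' score deciles. The gene-end share of peaks in all 3 lists then became 27.9%, a difference of -20.6 points (-22.9 to -18.3). With score quintiles and width tertiles weighted together it was 16.2%, a difference of -8.94 points (-11.2 to -6.71), so much of the gap moved with width and score. Against peaks seen in clone 1 alone, weighted by score decile, the difference was 0.73 points (-1.46 to 2.92), within counting error.

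The share outside gene bodies ran the same way. It was 58.3% in the members, 54.1% (53.2 to 55.0) in peaks of clone 1 alone and 38.7% (38.0 to 39.4) in peaks of all 3 lists. Weighted by score decile the difference from clone 1 alone was 4.22 points (0.05 to 8.39), and with width added 4.12 points (-0.04 to 8.29), at the edge of counting error. Weighted by score and width the difference from peaks of all 3 lists was 9.08 points (4.84 to 13.3). In position the members thus resembled peaks of clone 1 alone more than peaks also found in control. Members and peaks of clone 1 alone both lack a control peak by definition, so this contrast can follow from the rule and is a description only. Peaks are not replicates of a condition, and no p-value is given.

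**Figure D2:**
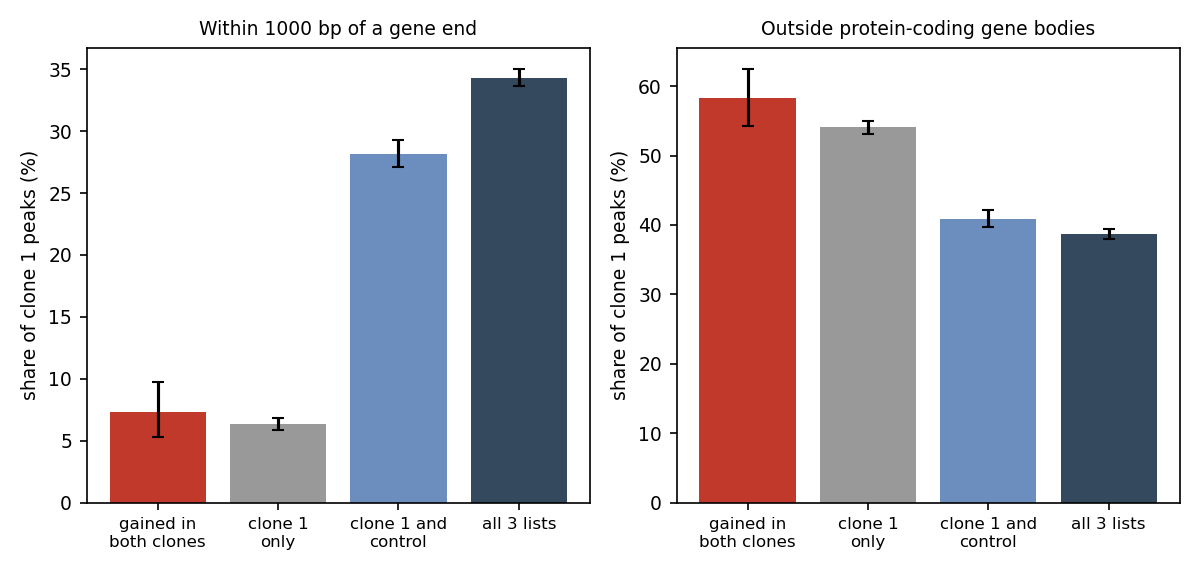
Share in % of clone 1 peaks within 1000 bp of a protein-coding gene end (left) and outside protein-coding gene bodies (right), unweighted, for peaks gained in both clones, in clone 1 only, in clone 1 and control, and in all 3 lists. Bars start at 0 and error bars are exact binomial 95% intervals; the gained peaks stand at 7.29% and 58.3%, near those of clone 1 only.

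The members were mostly weak calls. Their clone 1 scores had a median of 5.71 (order-statistic 95% interval 5.62 to 5.83), with a lowest value of 5.00 and a highest of 12.5, against a median of 6.07 over the clone 1 list and 7.12 over clone 1 peaks found in all 3 lists. Clone 1 peaks in neither other list were weaker still, with a median of 5.45. The overlapping clone 2 peaks had a median score of 9.69 (9.43 to 9.96), from 5.03 to 22.3, against 11.004 over the clone 2 list and 9.15 in the clone 2 peaks found in neither other list. In clone 1, 166 members (28.8%) scored above the list median, in clone 2, 167 (29.0%), and in both clones 55 (9.55%). Across the 576 members the scores of the clones had a Spearman rho of 0.074, so among members rank in one list said little about rank in the other. Many members share a clone 1 score, 94 of them 5.27, and no rho was computed for other peaks.

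**Figure D3:**
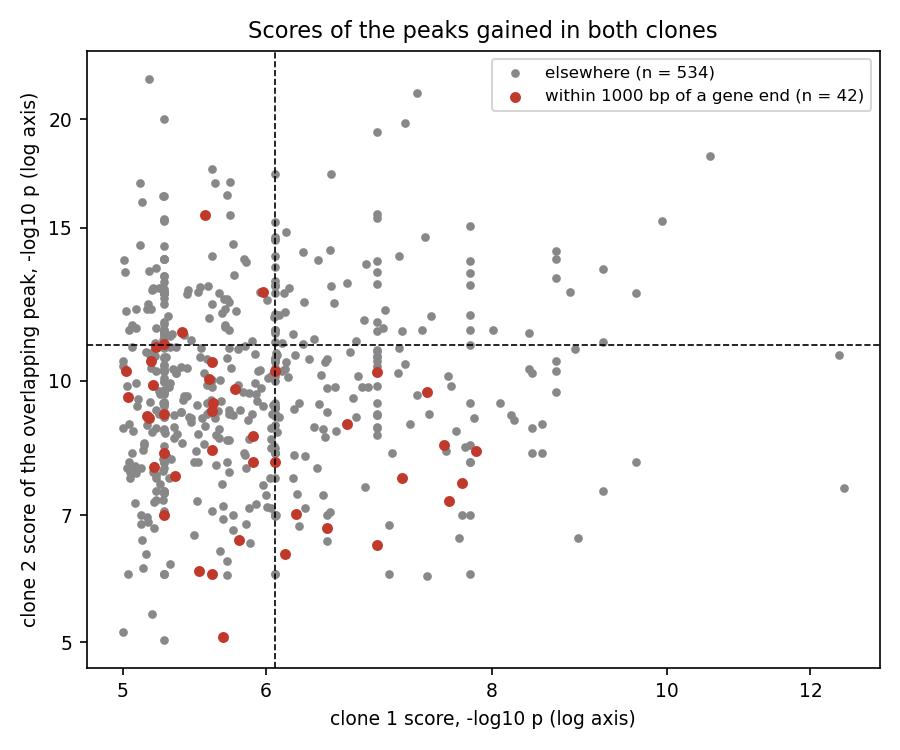
Clone 1 score against the score of the overlapping clone 2 peak, both -log10 p on log axes, for the 576 members, with those at gene ends in red; dashed lines mark the median of each whole list. In 55 members both scores are above the medians, and vertical rows of points are clone 1 scores shared by many peaks, such as 5.27.

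Widths followed the lists. Members were a median of 312 bp wide (295 to 329) in clone 1, against 277 bp for peaks of clone 1 alone and 626 bp for peaks of all 3 lists. Their clone 2 partners had a median of 151.5 bp, against 130.5 bp for clone 2 peaks in neither other list and 242 bp for clone 2 peaks of all 3 lists. The clone 2 peak lay wholly inside the member in 416 of 576 (72.2%), and the centres were a median of 40.5 bp apart. The shared stretch had a median of 142.5 bp. At the edge of the rule, the smallest overlaps were 8, 15 and 16 bp, and 10 clone 1 peaks missed a clone 2 peak by under 100 bp. On the control side, 9 members lay under 100 bp from a control peak, the nearest at 3 bp, and 10 peaks of all 3 lists shared under 100 bp with control. A second clone 2 peak was overlapped by 12 members, and 2 clone 2 partners themselves overlapped a control peak.

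The strongest members lay in gene bodies or outside genes, none of the 10 highest by either score at a gene end. By clone 1 score the first was on chromosome 2 (11386319 to 11386561), outside any protein-coding gene, scoring 12.5 for clone 1 and 7.52 for clone 2. The next, on chromosome 12 (18865222 to 18865499), lay 126 kb from CAPZA3, an actin capping protein gene, and scored 12.5 and 10.7. A peak on chromosome 6 (76104409 to 76104869), 31.7 kb from IMPG1, a retinal matrix gene, scored 10.6 and 18.2 and was among the 10 highest in each clone. It was the 1 member in the highest 20% of both lists. Peaks within gene bodies among the 10 highest of clone 1 were in DCDC2C (9.93 and 15.3), COL21A1, a collagen gene (9.61 and 8.06), ABAT, a GABA transaminase gene (9.22 and 11.1), DTHD1 (9.21 and 13.4) and CWC27, a spliceosome gene (9.21 and 7.47).

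By clone 2 score the first was on chromosome 6 (104312913 to 104313157), 415 kb from HACE1, a ubiquitin ligase gene, at 22.3, where the clone 1 score was only 5.17. The second lay on chromosome 3, 125 kb from CRBN, which encodes cereblon, at 21.4 in clone 2 and 7.27 in clone 1. Within MAP2, a neuronal microtubule protein gene, lay a member of 20.01 and 5.27 in the same order. A peak 315 kb from CDH6, a cadherin gene, scored 19.8 and 7.16. A peak inside SEMA3D, a semaphorin gene, scored 17.3 and 6.07. The highest clone 2 peaks thus ranged widely in clone 1.

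Members were fewest among the strongest clone 1 peaks. Over the deciles of clone 1 score their number was highest in the second decile, at 137, and fell to 24 in the ninth and 4 in the tenth. As a share of the clone 1 peaks absent in control, members made up 2.30% (1.73 to 3.01) of the weakest decile, 6.42% (5.42 to 7.55) of the second, 2.51% (1.86 to 3.30) of the third, 18.9% (12.5 to 26.8) of the ninth and 4 of 11 in the tenth. This share did not rise steadily, and the second decile stood above deciles 3 to 5. Of the 137 members in the second decile, 94 had 1 identical score, 5.27, which is described below. Among the 20814 clone 1 peaks that overlapped a clone 2 peak, 2.77% lacked a control peak. That share was 12.4% (10.6 to 14.5) in the second decile, the highest of the 10, and 0.108% (0.029 to 0.276) in the strongest decile. Of sites that were strong in clone 1 and present in clone 2, nearly all were therefore also listed in control.

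A set of identical scores ran through the members. The commonest clone 1 scores, 5.27, 6.07, 6.91 and higher steps, are those that a Poisson background with a mean of 1.91 gives at successive whole pileups. Of the members, 193 (33.5%, 29.7 to 37.5) had such a score, 94 of them the lowest step, against 11.2% (10.6 to 11.8) of peaks of clone 1 alone and 8.17% (7.80 to 8.56) of peaks of all 3 lists. Weighted to the members' score deciles the share in clone 1 alone was 13.5%, a difference of 20.02 points (16.1 to 23.9). The 193 were gene-end peaks in 7 cases (3.63%), and the remaining 383 in 35 (9.14%). Their median gap to the nearest control peak was 20534 bp, against 9058 bp for the 383. Without them 3.71% of clone 1 peaks absent in control were found in clone 2, in place of 4.89%. Leaving them out also took the median width from 312 to 343 bp.

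Some scores had more digits than a single call has, which is read here, from the digits alone, as a mean over merged calls. Whether such calls came from different libraries or from neighbouring calls of 1 library was not tested. In clone 1, 73 members (12.7%, 10.1 to 15.7) had such a score, and their median width was 440 bp. The share was 4.82% (4.43 to 5.23) in peaks of clone 1 alone and 50.03% in peaks of all 3 lists. In clone 2 the partner had one in 136 members (23.6%, 20.2 to 27.3), against 10.9% (9.81 to 12.02) of clone 2 peaks in neither other list and 40.4% of clone 2 peaks of all 3 lists. Both scores were of this kind in 17 members (2.95%, 1.73 to 4.68). Among these 17, named after their values were seen, was the DTHD1 peak above. Others lay in INPP4B, a phosphoinositide phosphatase gene, at 5.60 and 12.2, in NINL, a centrosomal protein gene, at 5.71 and 16.4, and in GALNTL6 at 7.14 and 11.4. None of the 17 was a gene-end peak, against 7.29% of all members, which says little for so few. A mean does not always show in the digits, so these counts can miss some.

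The members were not pressed against control peaks. Their median gap to the nearest control peak was 11560 bp (10178 to 13133), close to the 11220 bp (10897 to 11504) of peaks of clone 1 alone. Within 1000 bp of a control peak lay 45 members (7.81%, 5.76 to 10.3), against 11.6% (11.1 to 12.3) of peaks of clone 1 alone. At 100000 bp, 95.7% (93.7 to 97.2) of members and 98.7% (98.5 to 98.9) of peaks of clone 1 alone had a control peak within that distance. Within 2000 bp the shares were 15.3% (12.4 to 18.5) and 16.4% (15.7 to 17.1), and within 10000 bp 45.3% and 46.2%, within counting error. The sets thus differed at the shortest and the longest gaps shown.

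**Figure D4:**
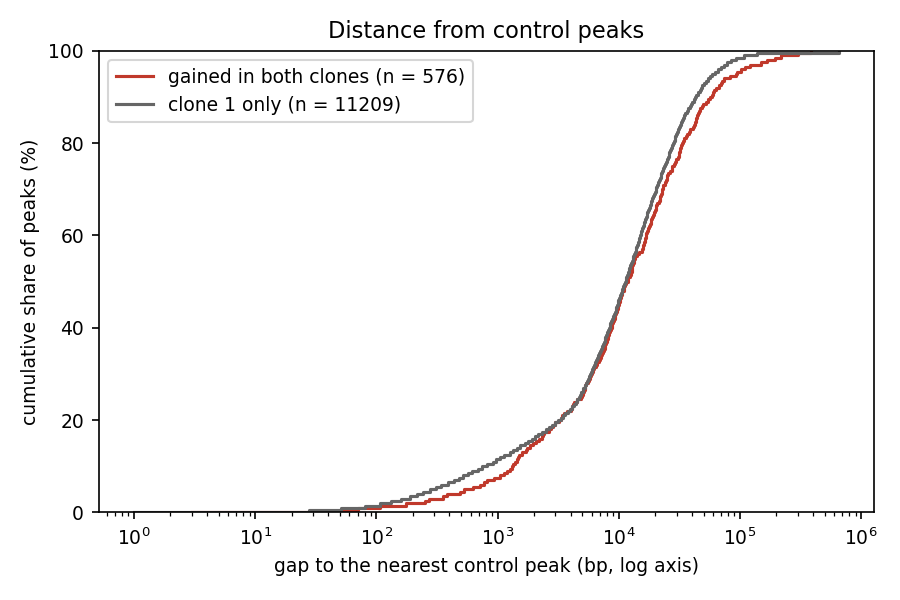
Cumulative share in % of peaks against the gap to the nearest control peak in bp (log axis), for the 576 peaks gained in both clones and the 11209 of clone 1 only. The members are fewer within 1000 bp (7.81% against 11.6%), the curves lie close at 10000 bp (45.3% against 46.2%), and more members lie at the largest gaps.

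Members were spread over all 23 chromosomes examined but not evenly. Chromosome 2 held 83 (14.4% of members), the most, followed by chromosome 7 with 48 and chromosome 4 with 46. Of clone 1 peaks absent in control, 7.49% (6.01 to 9.20) on chromosome 2 were found in clone 2, 8% (5.83 to 10.7) on chromosome 3 and 8.95% (5.30 to 13.9) on chromosome 18, against 4.89% over all. Chromosomes 1 (3.40%, 2.48 to 4.54) and 10 (3.10%, 1.88 to 4.81) also lay below it. The lowest shares were 1.18% (0.14 to 4.19) on chromosome 22, 1.98% on chromosome 17, 2.02% on chromosome 16 and 2.35% on chromosome 19. These 4 chromosomes, picked after their values were seen, together had 20 of 1017 (1.97%, 1.21 to 3.02), against 5.16% (4.75 to 5.60) on the others. Clone 1 peaks that control did share were also found in clone 2 least often on these 4: the share was 41.7% for chromosome 22 and 53.1% for chromosome 17, with 80.6% for chromosome 2 and 75.7% over all. Across the 23 chromosomes these shares had a Spearman rho of 0.739, and both use the same clone 2 list.

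**Figure D5:**
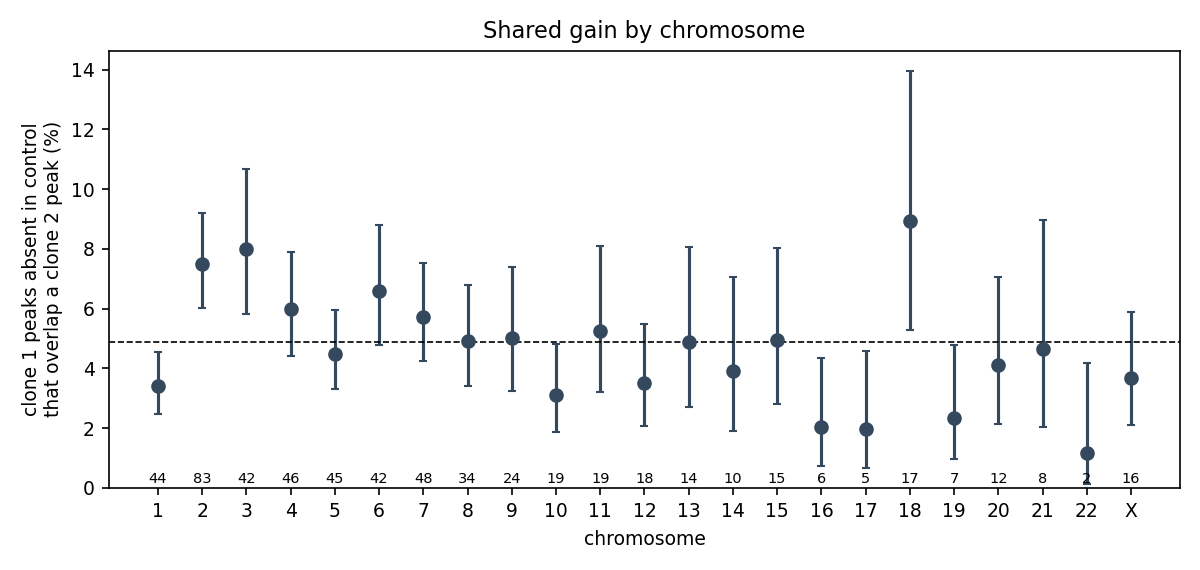
Share in % of clone 1 peaks absent in control that overlap a clone 2 peak, by chromosome, with exact binomial 95% intervals; numbers along the bottom are the members and the dashed line is the 4.89% over all. The intervals of chromosomes 2, 3 and 18 lie wholly above the line, and those of 1, 10, 16, 17, 19 and 22 wholly below it.

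Members seldom lay next to one another. Only 11 runs joined 2 members by a gap of at most 50 kb, none joined 3, and 554 members stood alone. Such runs were 11.1 kb long on chromosome 6 nearest TFAP2A, and 7.98 and 25.3 kb long on chromosome 7 nearest TMEM106B, a lysosomal membrane protein gene. No control peak lay within any of these 3 spans, but one lay just outside the 7.98 kb run, 0.094 kb from its first member. The window of 5 Mb with the most members was on chromosome 7 from 10000001 to 15000000, with 11 of 53 clone 1 peaks absent in control (20.8%). They lay in or near THSD7A, TMEM106B, VWDE, ETV1, an ETS transcription factor gene, and DGKB, a lipid kinase gene, with clone 1 scores of 5.26 to 8.89 and clone 2 scores of 7.30 to 14.7. Gaps from these 11 members to the nearest control peak ran from 0.094 to 35.6 kb. On chromosome 2 from 180000001 to 185000000 it was 5 of 12, among them a peak inside PDE1A, a phosphodiesterase gene, at 5.27 and 15.3. Windows were picked after their counts were seen.

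Neither CD274, the gene for PD-L1, nor SMARCAL1 had one nearby: the nearest lay 1324 kb from CD274 and 2218 kb from SMARCAL1. Of 17 gene lists with 335 matched entries, 2 had 1 gene-end member each, against 0.26% of all genes. BRCA1, a homologous recombination gene, was the 1 of 35 replication fork and repair genes, and H3C12 the 1 of 33 replication-dependent histone genes. The BRCA1 member (chromosome 17, 43170449 to 43171448) began 122 bp before 43170327, the outer end of the BRCA1 record and its nearest annotated start. Whether BRCA1 uses that start in these cells was not tested. The member covered a start of its neighbour NBR1, an autophagy receptor gene, and had scores of 6.15 and 6.33. The clone 2 peak was 173 bp wide and lay at the NBR1 start (-169 to 3), not at the BRCA1 end.

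No gene-end member was found at the 21 nucleic acid sensing genes, 33 interferon-stimulated genes, 14 checkpoint ligands, 19 AP-1 factors, 19 NF-kB genes, 30 chromatin remodellers, 25 cell cycle genes, 15 mesenchymal, 12 basal and 12 luminal genes, 18 lineage and stress transcription factors, 25 housekeeping genes, or the 10 leukocyte, 6 melanocyte and 8 endothelial and fibroblast markers. With 0.26% of all genes having one, lists of this size say little by a count of 0. Inside gene bodies, where 1.18% of all genes had a member, there were 2 list genes: ISG20, an interferon-induced exonuclease gene, with scores of 5.74 and 10.4 and a control peak 255 bp from the member, and TEAD4, a Hippo pathway transcription factor gene, with 5.00 and 8.83. Of all genes 2.84% had a member within 50 kb, and list genes outside which one lay so near were CCNE1, the cyclin E1 gene (6.84 kb), TRAF2, a signalling adaptor gene (15.1 kb), RIGI, an RNA sensor gene (27.01 kb), CHD7, a remodeller gene (43.7 kb), and the histone genes H3C11 (18.4 kb) and H1-5 (23.1 kb), whose nearest member was that of H3C12. For the cell line label, a control gene-end peak was found at 3 of 3 mesenchymal, 3 of 6 epithelial, 1 of 3 basal, 0 of 3 leukocyte and 2 of 3 melanocyte markers. In the longer lists it was found at 11 of 15 mesenchymal, 7 of 12 basal, 6 of 12 luminal, 3 of 10 leukocyte and 3 of 6 melanocyte genes. A gene-end peak does not show that a gene is expressed. None of these genes had a gene-end member.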

How the data were processed

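ATAC-seq of MDA-MB-436 was used as 3 peak lists, in which the authors had merged the replicates of each group, per the labels. Per the submitters' processing notes, the tools named are ChIPseeker, HISAT2 and MACS2 and the genome builds hg38 and mm10, without a role or order. Tool versions are not given in the sources. Each deposited line holds a position and a score. The deposited score was read, from its values, as a -log10 p: none lies below 5, and its commonest values are steps of a Poisson tail. It ranks peaks within a list only. Read totals are not used here.

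Overlaps, gaps, shares with exact (Clopper-Pearson) binomial 95% intervals and medians with order-statistic intervals were computed in Python 3.11.15 with pandas 2.3.3, numpy 2.4.6 and scipy 1.17.1, after the overlap code was tested on simulated intervals. Coordinates were counted from 1. Genes and start regions came from RefSeq tables of GRCh38.p14; 15813 of 19974 protein-coding genes had a start region. A clone 1 score with more than 5 decimals, or a clone 2 score with more than 6 significant digits, was taken as a mean over merged calls. With 1 list per group no test across replicates exists.

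Named genes followed a rule: CD274 and SMARCAL1; the first 15 gene-end genes by the lower score rank; genes nearest the 10 highest members of each clone; the 5 with most members; and list genes with a member. Not every gene it takes is printed. Members, rule and lists were chosen with earlier results of these data known. Alternatives changed the overlap, the distance from control, the score minimum, the side counted, the contigs and the windows.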

Additional observations from a re-analysis of the deposited data

How the results depend on the processing

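No paired analysis was possible because the deposited lists hold no values per replicate; for the same reason no replicate could be left out. Of 116 recomputed values 87 stayed within the interval of the value reported, or within 1.5 times for counts, and 29 did not. Requiring an overlap of 50% of the shorter peak, no control peak within 500 bp, all contigs or other gene-end windows moved none. Joining members within 1000 bp could move nothing, as no pair lies that close, and is not counted here; the share found in clone 2 was not recomputed for it. With no control peak within 2000 bp the median gap was 15795 bp and the runs 6. With scores of at least 6 in both clones 235 members were left, 8.75% of clone 1 peaks absent in control, with median scores of 6.51 and 10.1, 17 genes, 2 runs and 8.94% means. With the clone 1 list shortened to the length of the clone 2 list the share was 5.52% and the median clone 1 score 5.90. Counted as clone 2 peaks the share was 16.4% and the runs 25. Runs numbered 2 at a gap of 10 kb and 38 at 200 kb.

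Settings chosen after seeing the data: among clone 1 peaks with a mean score, 73 members were left, 11.9% of those absent in control, of which 10.96% were gene-end peaks and 49.3% lay outside genes, with a median gap of 8086 bp, a median width of 440 bp, 11 genes and 0 runs. Off the commonest series of scores, 383 members were left, a share of 3.71%, with a gap of 9058 bp, a width of 343 bp, 7 runs and 19.1% means. Where the clone 2 partner also had to be absent in control, no value moved. The cause was not tested beyond the construction of each setting, which changes the peaks counted. Depth per library is unknown, so absence from a list is not absence of accessibility.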

Other observations

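Noncoding starts were also covered. Start regions of 17 noncoding genes lay under peaks of both clones, beside the 22 protein-coding genes, and 52 members (9.03%, 6.82 to 11.7) lay within 1000 bp of any annotated start, against 6.24% (5.80 to 6.70) of peaks of clone 1 alone. Weighted to the members' score deciles the difference was 2.68 points (0.28 to 5.08), and with width added 2.49 points (0.09 to 4.89), counting error only. The genes named next were chosen after their values were seen. MAP9-AS1, an antisense transcript gene on chromosome 4, scored 6.07 (clone 1) and 10.3 (clone 2) with the nearest control peak 22154 bp away. LINC02896 on chromosome 15 had 5.27 and 9.15, and LINC02703 on chromosome 11 had 5.27 and 10.1. Some of the 17 add no new member. YAE1-DT and ZBED3-AS1 share their members with the protein-coding neighbours YAE1 and PDE8B, and LOC124903339 and LOC124900391 share theirs with SYNJ2BP and NBR1. The member at PRKAB1-AS1 is the gene-end member of TMEM233. At TMPO-AS1 the member, also the gene-end member of TMPO, lay 68 bp from a control peak, with scores of 5.04 and 9.58. Of 1562 annotated miRNA hairpins none overlapped a member and 1 lay within 1000 bp of one. No such count was made for other clone 1 peaks, so this is a description only.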
